A study of Homo sapiens with 12 samples.

Results

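Collagens are the main structural proteins of the extracellular matrix, and each is built from 3 polypeptide chains wound into a triple helix. The genes of these chains were chosen by name, as every probe whose platform gene symbol was COL, a number, A and a number, which gave 73 probes of 43 genes out of 47323 probes of 20046 named genes. The pseudogenes COL6A4P1 and COL6A4P2 were not counted, and COL17A1, a transmembrane chain, was not analysed here. The 12 Illumina bead arrays were hybridised with RNA of PANC-1, a human pancreatic duct carcinoma line in long use. In 6 samples (knockdown, titled TIMP1_KD) the cells carried a lentiviral pLKO.1 construct encoding an shRNA to human TIMP1, and in the other 6 (control, titled WildType) the puromycin-resistance vector pLKO.1 puro. All 12 were grown with puromycin, and the labels name no clones. They leave unsaid whether replicates were grown separately, and the spread behind each p-value may therefore be technical.

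TIMP1 blocks the matrix metalloproteinases, which cut collagens outside the cell. Fibrillar chains (types I, II, III, V, XI and others) form the banded fibres of connective tissue, type IV chains form the sheet of basement membranes, and type VIII and X chains form open lattices. Transmembrane chains sit in the cell surface, FACIT chains decorate fibrils, type VI chains form beaded microfilaments, multiplexins lie beside basement membranes and type VII forms the fibrils that anchor epithelia. In pancreatic tumours the fibrillar collagens are known to be made mainly by stellate cells and fibroblasts, whereas this culture was of an epithelial line.

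TIMP1 itself had a normalised log2 intensity of 13.56 ± 0.06 in the knockdown and 13.75 ± 0.07 in the controls (SD, n = 6 each). The log2 fold change, knockdown minus control here and throughout, was -0.19 (limma adjusted p = 0.101, exact two-sided permutation p = 0.00216, the smallest that 6 against 6 can give). The groups did not overlap, but the lowest control (13.64) lay next to the highest knockdown array (13.63). Detected probes (detection p under 0.05) numbered 15898 to 17680 on the knockdown arrays and 15681 to 16565 on the controls. Their means were 16861 and 16160 (exact two-sided permutation p = 0.0498). Knockdown 2 and knockdown 6 had the most, with 17360 and 17680. Signals as deposited ranged from 98.3 to 19220. Those of the TIMP1 probe, 10918 to 13185 in the knockdown and 12620 to 15949 in the controls, were high in that range. Whether signal stayed proportional to transcript there was not tested. Precision is limited by there being 6 arrays a group. Of 10 markers of ductal epithelium 8 were detected, among them KRT7, KRT8, KRT18, KRT19 and EPCAM, while CDH1 and CLDN7 were detected on no array. Of 14 markers of fibroblasts and stellate cells 1, PDGFRA, was detected, and 10, DCN and LUM among them, were detected on no array. As deposited, the signal of all 26 probes of the fibroblast list summed to 4684 to 4990 in the knockdown and 4481 to 4953 in the controls. Only 2 of the 26 were detected on at least 6 arrays, so the sum is mostly of probes not detected. Of 9 endothelial and leukocyte markers CD14, CD68 and PECAM1 were detected. The deposited signal of that list summed to 6077 to 7078 in the knockdown and 5713 to 6483 in the controls, with 5 of its 17 probes detected. The part of either list in the collagen values was not tested.

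Most collagen genes were not measurable in these cells. A probe entered the tests when it was detected on at least 6 of the 12 arrays, which held for 15 of the 73 collagen probes (20.5%) and for 34.9% of all probes. They covered 12 of the 43 genes (27.9%, against 48.8% of all named genes). Another 55 collagen probes were detected on no array of either group, and 3 on fewer than 6. The number of collagen probes detected per array was 13 to 17 in the knockdown and 13 to 18 in the controls. A probe not above background says nothing of whether its gene is silent.

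**Figure D1:**
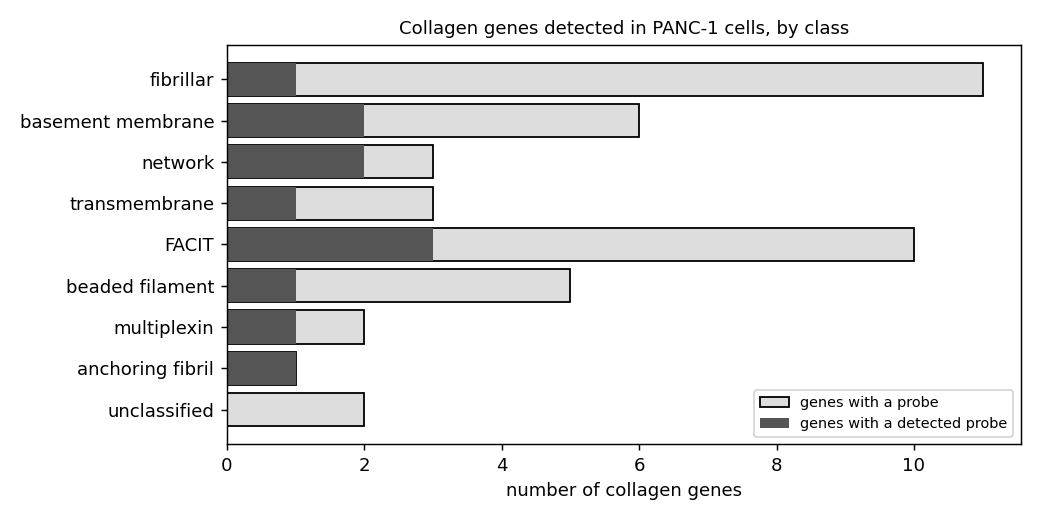
Number of collagen genes with a probe (light bars) and with a detected probe (dark bars) in each structural class, over the 12 arrays of both groups. The fibrillar class has 1 detected gene of 11 and the network class 2 of 3.

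Of the 11 fibrillar genes only COL11A2 was detected, by 1 of its 3 probes, and the others of its probes were detected on no array. COL1A1, COL1A2 and COL3A1, the chains of the major interstitial collagens, and COL2A1 of cartilage were detected on no array. COL5A1, which helps to set fibril diameter, was detected on 2 knockdown arrays and 1 control array. Of the 6 type IV genes COL4A2 and COL4A5 were detected, and of the 3 network genes COL8A1 and COL8A2. The transmembrane class was represented by COL13A1 alone of 3 genes, the FACIT class by COL12A1, COL16A1 and COL19A1 of 10. COL6A1 was detected but its trimer partners COL6A2 and COL6A3 were not, on any array. COL18A1, the precursor of the fragment endostatin, and COL7A1, of the anchoring fibrils, completed the 12 genes. COL16A1 (4 knockdown and 2 control arrays) and COL19A1 (3 and 3) passed through 6 arrays only. The other 10 genes had a probe detected on all 12. For COL8A2, COL12A1, COL18A1 and COL19A1 only 1 of 2 probes passed. Also detected on no array were COL5A2, COL5A3, COL11A1, COL24A1 and COL27A1 of the fibrillar class, COL4A3 and COL4A4 of the type IV genes, COL10A1 of the network class. The same held for COL23A1 and COL25A1 of the transmembrane class, COL9A1, COL9A2, COL9A3, COL14A1, COL20A1, COL21A1 and COL22A1 of the FACIT class, and for COL6A5 and COL6A6 of the type VI genes, COL15A1 of the multiplexin class, COL26A1 and COL28A1 of no assigned class.

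The COL4A1 and COL4A2 genes lie head to head on chromosome 13, and their products join in the trimer of most basement membranes. The COL4A2 probe was detected on all 12 arrays and the 1 COL4A1 probe on none. Whether this comes from the RNA or from the COL4A1 probe was not tested. The promoters are shown because both genes are read from one stretch. Windows from 250 bases before to 50 bases after each start site (RefSeq, GRCh38.p14), at chr13:110307034-110307333 on the plus strand and chr13:110307108-110307407 on the minus strand, share 226 bases, and the start sites are 127 bases apart. Each is printed 5′ to 3′, with every match to CCAAT or to the GC box GGGCGG on either strand in capitals.
COL4A2: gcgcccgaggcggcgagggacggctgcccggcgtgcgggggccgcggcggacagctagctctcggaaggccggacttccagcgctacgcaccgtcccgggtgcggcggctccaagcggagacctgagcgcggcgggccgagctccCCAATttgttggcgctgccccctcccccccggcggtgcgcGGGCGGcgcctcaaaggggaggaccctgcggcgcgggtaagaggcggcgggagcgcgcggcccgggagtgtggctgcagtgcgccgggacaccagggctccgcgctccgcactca
COL4A1: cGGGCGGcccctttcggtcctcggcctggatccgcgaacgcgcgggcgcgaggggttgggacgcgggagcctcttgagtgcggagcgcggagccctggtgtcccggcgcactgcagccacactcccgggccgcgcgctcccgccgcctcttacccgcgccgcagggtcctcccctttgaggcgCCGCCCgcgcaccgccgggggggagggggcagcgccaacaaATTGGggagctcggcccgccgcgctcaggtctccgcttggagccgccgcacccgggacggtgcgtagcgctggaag
The shared stretch holds 1 CCAAT and 1 GGGCGG on the COL4A2 strand, at -105 to -101 and -65 to -60 from its start, and the GGGCGG at -249 to -244 of COL4A1 lies outside it. Neither window holds TATAAA or the AP-1 site TGANTCA. The 4 motifs do not overlap in these windows. Of all 35116 RefSeq promoter windows, 34.6% hold CCAAT, 45.0% GGGCGG, 11.5% TATAAA and 7.71% TGANTCA on either strand. RefSeq windows were at hand for 31 of the 43 collagen genes and 10 of the 12 detected ones, without COL8A1 and COL6A1. A match is a description of letters, not of binding.

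The comparison of knockdown with control asked which collagen transcripts differed. COL8A1 was the 1 collagen gene with a called probe. All 3 of its probes were higher in the knockdown. Of these, 2 were called, at about 1.38-fold and 1.59-fold, and the other missed the threshold. Both calls were lost in 10 of the 12 fits that left out a single array. No collagen probe was called lower, though COL4A2 and COL7A1 had log2 fold changes of -0.51 and -0.19. In bulk RNA, fewer cells with a transcript and less of it per cell cannot be told apart. The 15 detected probes held 2 called in either direction, where 0.303% of all 16495 detected probes were. Both were called higher, where 0.255% of all probes were, and 0 called lower, where 0.0485% were (limma with Benjamini-Hochberg adjustment over all detected probes, threshold 0.05). At an unadjusted p under 0.05 there were 4 collagen probes higher and 2 lower, 6 of 15 against 14.5% of all detected probes, and 3 of the 6 belonged to COL8A1.

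**Figure D2:**
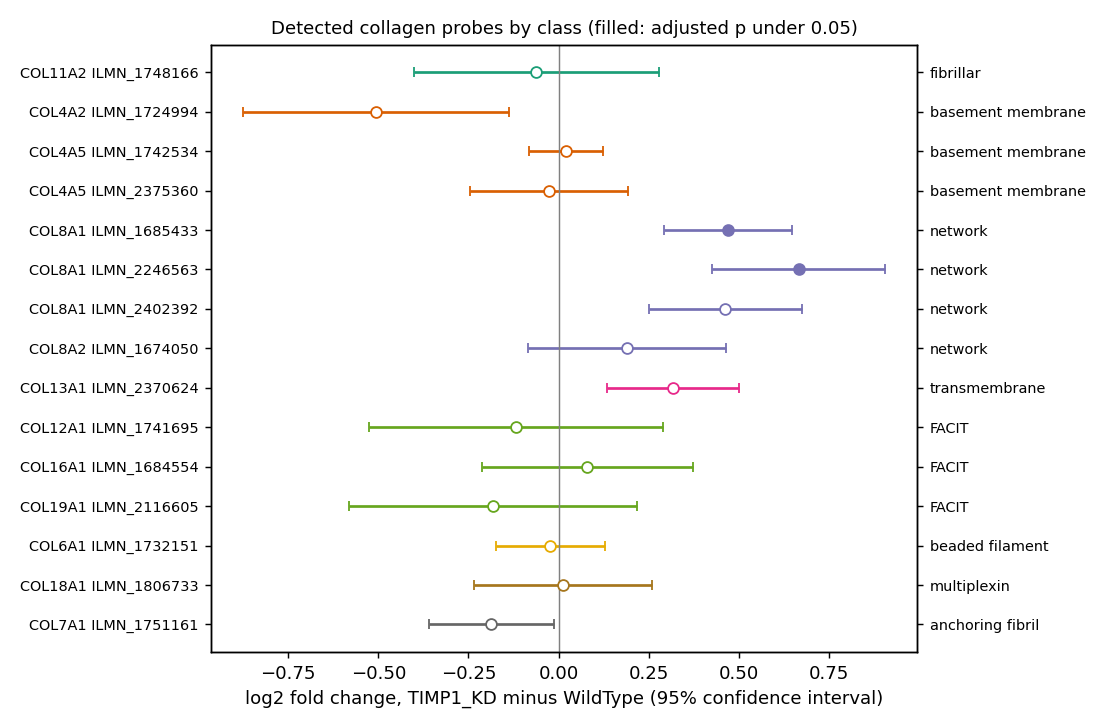
Log2 fold change (knockdown minus control) with its 95% confidence interval for the 15 detected collagen probes, by structural class, 6 arrays per group. Filled points passed an adjusted p of 0.05; these are 2 of the 3 COL8A1 probes, at 0.47 and 0.67, and the lowest point is COL4A2 at -0.51.

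COL8A1, on chromosome 3, encodes the alpha 1 chain of type VIII collagen, a short-chain collagen known from the Descemet membrane of the cornea and from vessel walls. On its brightest probe, ILMN_1685433, the log2 intensity was 11.15, 11.72, 11.37, 11.41, 11.45 and 11.62 on knockdown arrays 1 to 6, against 10.95, 10.97, 10.91, 10.98, 11.003 and 11.08 on control arrays 1 to 6. All 6 knockdown arrays were above all 6 controls, with knockdown 1 nearest to them and control 6 the highest control. As deposited, before any correction, the signal of this probe was 2452 to 3557 in the knockdown and 2012 to 2302 in the controls. The log2 fold change was 0.47 ± 0.08 (SE, n = 6 per group), or 1.38-fold with a 95% confidence interval of 1.22 to 1.56 (limma adjusted p = 0.0444).

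Probe ILMN_2246563 of the same gene had 7.65, 8.13 and 8.35 (lowest, median and highest log2 intensity) in the knockdown and 7.25, 7.34 and 7.64 in the controls. Knockdown 1 and control 6 again lay closest, at 7.65 and 7.64. Its log2 fold change was 0.67 ± 0.11 (limma adjusted p = 0.0403). ILMN_2402392 had 9.90, 10.22 and 10.57 in the knockdown and 9.53, 9.80 and 9.88 in the controls, a log2 fold change of 0.46 ± 0.10 (limma adjusted p = 0.0792). None of the 3 probes overlapped between groups (exact permutation p = 0.00216 for each, two-sided), where 1.02% of all detected probes lay wholly higher in the knockdown. No collagen probe lay wholly lower, where 0.546% of all did. Among the knockdown arrays, knockdown 1 was lowest on all 3 probes, knockdown 2 was highest on ILMN_1685433 and ILMN_2402392, and knockdown 6 on ILMN_2246563. The spread was larger in the knockdown than in the controls on each probe, for ILMN_1685433 an SD of 0.20 against 0.06.

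**Figure D3:**
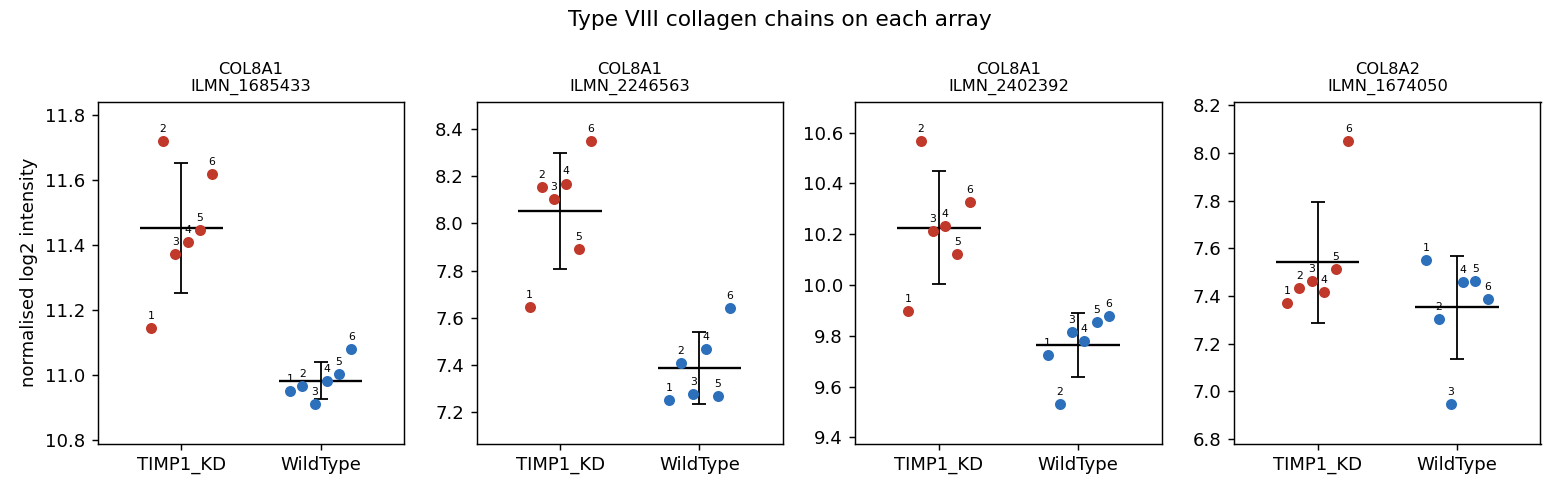
Normalised log2 intensity of the 3 COL8A1 probes and the detected COL8A2 probe on each array (points numbered by replicate, knockdown left, control right), with group mean and SD, 6 arrays per group. For COL8A1 every knockdown point lies above every control point, while the COL8A2 groups overlap and knockdown 6 stands apart at 8.05. Each panel has its own axis, which does not start at 0.

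COL8A1 stayed higher on each of its 3 probes in the alternatives run for that probe (ILMN_2246563 did not pass the stricter detection filter), but its adjusted p lay close to the threshold. In 10 of the 12 fits that left out a single array, those without any one of controls 1 to 5 or of knockdown 2 to 6, both called probes missed it (adjusted p = 0.0742 to 0.119). With each array's count of detected probes in the model the log2 fold changes were 0.32 and 0.48 (adjusted p = 0.427 for both). The count was itself higher on average in the knockdown, so this fit cannot fully separate it from the group. Without knockdown 2 and 6 the log2 fold changes were 0.36 and 0.56 (adjusted p = 0.143 and 0.153). Scaling by the median alone (adjusted p = 0.114 and 0.0717) and testing without a detection filter (0.0816 and 0.0732) also ended both calls. The size on ILMN_2246563 depended on background correction, and was 0.38 without it.

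COL8A2, on chromosome 1, encodes the alpha 2 chain, which forms trimers of type VIII collagen alone or with the alpha 1 chain. Its detected probe had 7.37, 7.45 and 8.05 (lowest, median and highest log2 intensity) in the knockdown and 6.94, 7.42 and 7.55 in the controls. The groups overlapped, and the log2 fold change was 0.19 ± 0.13 (limma adjusted p = 0.508), or 0.0064 with detected probes as a covariate. Whether the 2 chains differed in their response was tested on the log2 ratio of the COL8A1 to the COL8A2 probe within each array, which is a ratio of probe signals and not of transcripts. It averaged 3.91 ± 0.24 in the knockdown and 3.63 ± 0.20 in the controls (SD, n = 6 each), a difference of 0.28 (exact two-sided permutation p = 0.0519). This missed the threshold, but passed it without background correction, at 0.34 (exact permutation p = 0.00216). Neither chain changed more in that setting. The log2 fold change of COL8A1 was 0.44 there, against 0.47 in the main fit. That of COL8A2, the dimmer probe, fell further, to 0.10 from 0.19. COL8A1 with COL8A2 was the 1 of 11 trimer pairs with both chains detected.

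COL13A1, on chromosome 10, encodes a transmembrane collagen found at cell junctions and neuromuscular contacts. It had a log2 intensity of 9.27, 9.62, 9.48, 9.30, 9.27 and 9.68 on knockdown arrays 1 to 6, against 9.18, 9.11, 8.97, 9.05, 9.10 and 9.30 on control arrays 1 to 6. Knockdown 2, 3 and 6 were above every control, and control 6 at 9.30 reached the other 3. The log2 fold change was 0.32 ± 0.08 and did not pass the test (limma adjusted p = 0.157; 0.0732 to 0.710 over its alternatives). It was 0.20 with detected probes as a covariate and 0.21 without knockdown 2 and 6.

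Among the basement membrane chains, COL4A2 had the lowest log2 fold change of the 12 genes, -0.51 ± 0.17, with a 95% confidence interval of -0.87 to -0.14 that did not pass the test (limma adjusted p = 0.224). Its log2 intensity was 6.66, 7.23 and 7.72 (lowest, median and highest) in the knockdown and 7.50, 7.76 and 8.24 in the controls. Knockdown 2 was the lowest array at 6.66, and knockdown 1 at 7.72 and knockdown 4 at 7.56 lay within the range of the controls. The value was -0.27 without background correction and -0.30 with detected probes as a covariate. COL4A5, a chain of specialised basement membranes and the X-linked gene of Alport syndrome, had 0.02 ± 0.05 on its brightest probe, with a 95% confidence interval of -0.08 to 0.12, and -0.03 ± 0.10 on the other. COL4A5 was thereby the most narrowly bounded collagen gene, with control arrays between 10.39 and 10.48. Its partner COL4A6 was detected by 1 of 3 probes, on 4 knockdown arrays and 1 control array, and was not tested.

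COL7A1, the chain of the anchoring fibrils that fasten epithelia to the underlying tissue, had 10.61, 10.85 and 10.96 (lowest, median and highest) in the knockdown and 10.79, 10.995 and 11.27 in the controls. The groups overlapped, and the log2 fold change of -0.19 ± 0.08 did not pass the test (limma adjusted p = 0.316). With scaling by the median alone, under which the median log2 fold change of all detected probes was 0.12, against 0.0083 in the main normalisation, it was -0.05, or -0.17 relative to that median. COL8A1 relative to the same median had 0.49, 0.62 and 0.47 on its 3 probes.

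**Figure D4:**
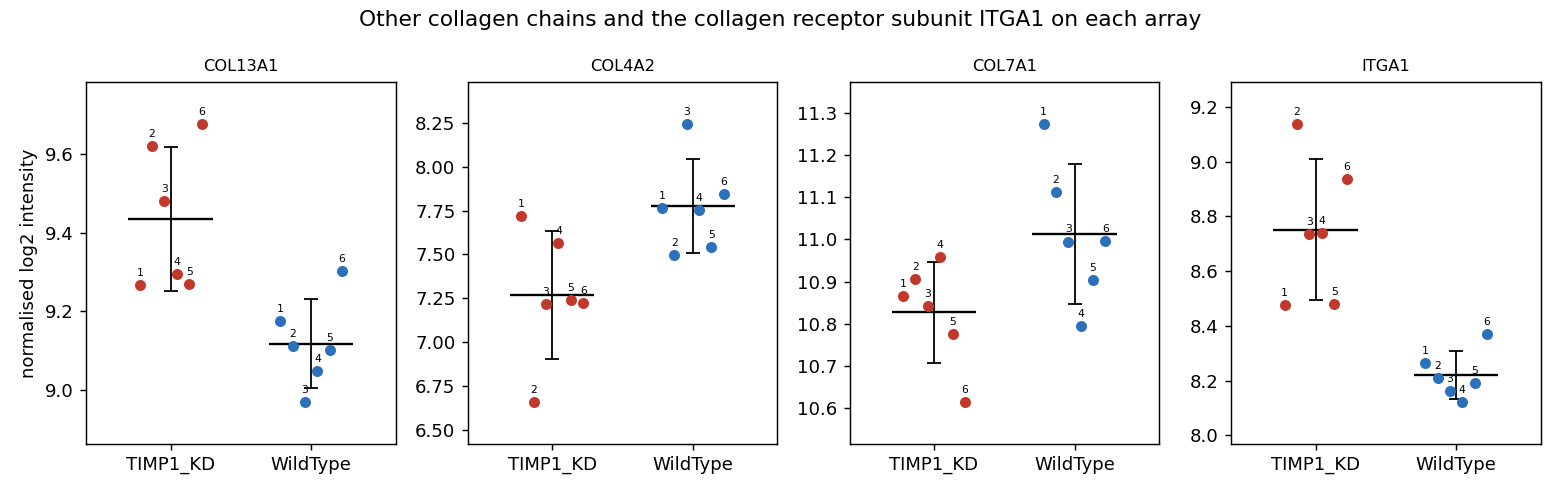
Normalised log2 intensity of COL13A1, COL4A2, COL7A1 and ITGA1 on each array (points numbered by replicate, knockdown left, control right), with group mean and SD, 6 arrays per group. The collagen groups overlap, and those of ITGA1 do not (lowest knockdown 8.48, highest control 8.37). Each panel has its own axis, which does not start at 0.

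The remaining chains differed by less than the spread between arrays, and none had an unadjusted p under 0.05. COL6A1, which forms beaded microfilaments, had a log2 fold change of -0.02 ± 0.07 (95% confidence interval -0.17 to 0.13). COL18A1 had 0.01 ± 0.11 and COL11A2, a fibrillar chain of cartilage, -0.06 ± 0.16. The FACIT chain COL12A1 had -0.12 ± 0.19 and ranged from 7.31 to 8.22 in the knockdown and from 7.58 to 8.44 in the controls. COL16A1 had 0.08 ± 0.13 and COL19A1 -0.18 ± 0.18, both near the background. For COL12A1 and COL19A1 the confidence intervals, -0.53 to 0.29 and -0.58 to 0.22, leave room for differences as large in size as that of COL8A1. Over the brightest probe of each detected gene, 6 of the 12 were above 0 and 6 below. Their median log2 fold change was -0.0052, against 0.02 for all 9780 detected genes. Without regard to sign the median was 0.15, against 0.064 for all detected genes. The genes were not matched for brightness or standard error. Among the collagen genes COL4A2, COL11A2, COL12A1 and COL19A1 had standard errors of 0.16 to 0.19. The detected genes with an unadjusted p under 0.05 were 4 of 12, against 15% of all detected genes.

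Genes that act on collagen were described from lists of the 68 enzymes, export factors, receptors and proteases, of which 39 were detected. None of the 39 passed the test, where 0.389% of all detected genes did, and 5 had an unadjusted limma p under 0.05, against 15% of all detected genes. Of 17 detected genes that fold and modify chains, 9 were above 0 and 8 below, with a median log2 fold change of 0.0007. PLOD3, a lysyl hydroxylase, had -0.11 ± 0.04 and CRTAP, a subunit of the prolyl 3-hydroxylase complex, -0.08 ± 0.03 (limma adjusted p = 0.281 and 0.288). TMEM38B, an ion channel of the endoplasmic reticulum needed for collagen folding, had 0.11 ± 0.04 (limma adjusted p = 0.301). Of 7 genes of export and processing 6 were above 0, as were 57.1% of all detected genes, and none of the 7 had an unadjusted limma p under 0.05. Here MIA3, which loads procollagen for export, had 0.15 ± 0.12, but was detected on only 4 knockdown and 2 control arrays. The coat proteins SEC23A and SEC24D had 0.08 ± 0.06 and 0.06 ± 0.07. Among 4 crosslinking enzymes PXDN, which links type IV collagen, had -0.23 ± 0.14 (adjusted p = 0.472), the lysyl oxidase LOX 0.14 ± 0.11 and TGM2 0.01 ± 0.04.

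**Figure D5:**
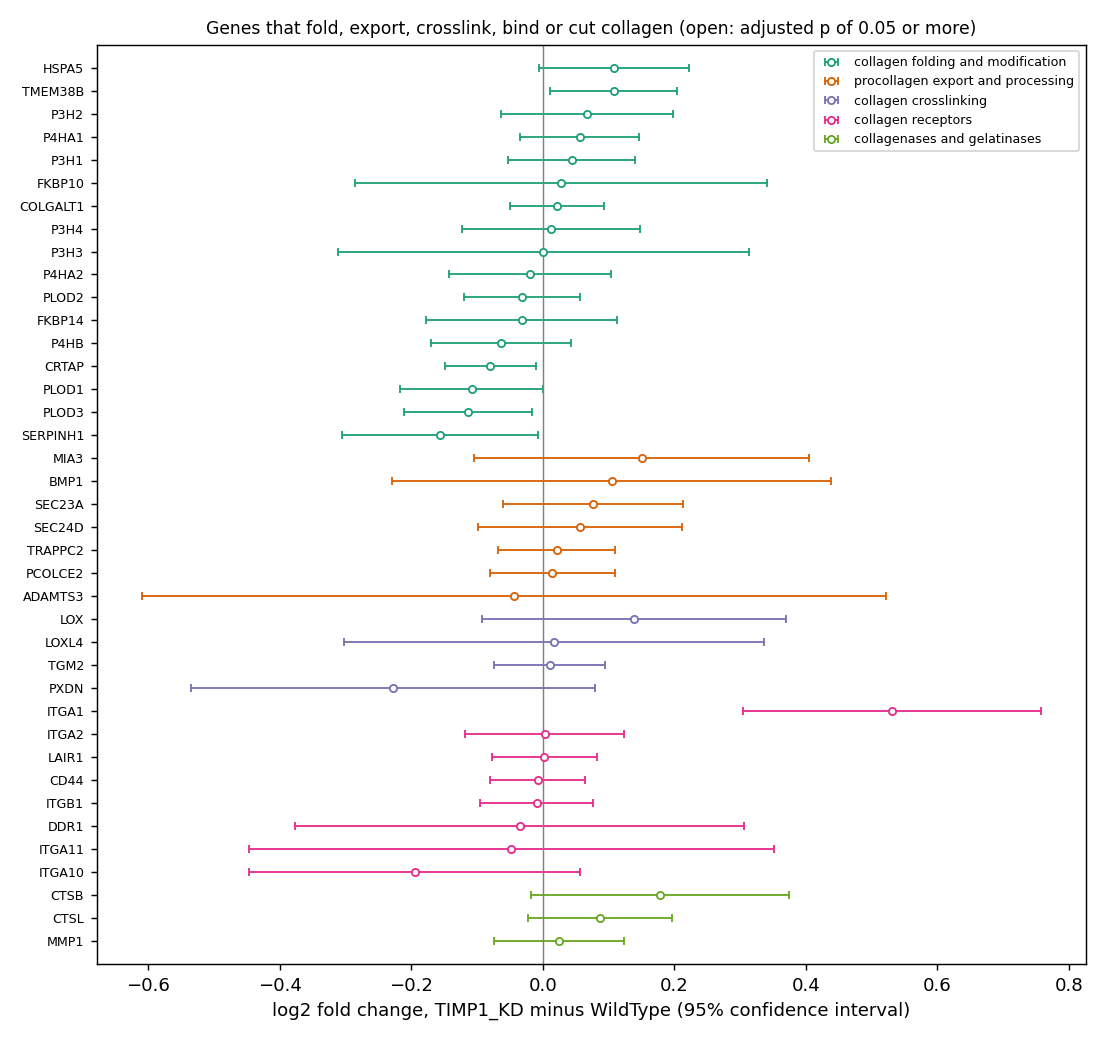
Log2 fold change (knockdown minus control) with its 95% confidence interval for the 39 detected genes that fold, export, crosslink, bind or cut collagen, 6 arrays per group. All points are open, as none passed an adjusted p of 0.05, and ITGA1 stands farthest from 0 at 0.53.

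Among 8 detected collagen receptors, ITGA1, the alpha 1 integrin subunit that binds type IV and other collagens, had the smallest p. Its log2 intensity was 8.48, 9.14, 8.74, 8.74, 8.48 and 8.94 on knockdown arrays 1 to 6, against 8.27, 8.21, 8.16, 8.12, 8.19 and 8.37 on control arrays 1 to 6. The groups did not overlap (exact permutation p = 0.00216), and the log2 fold change was 0.53 ± 0.10, but it missed the threshold (limma adjusted p = 0.0665). It passed without knockdown 1 (adjusted p = 0.0233; up to 0.513 over its alternatives), and had 0.37 with detected probes as a covariate. As on the brightest COL8A1 probe, knockdown 2 and knockdown 6 were the highest arrays on this probe and control 6 the highest control. The integrin chains ITGA10 and ITGA11 had -0.19 ± 0.12 and -0.05 ± 0.18, with ITGA10 detected on only 3 knockdown and 4 control arrays. ITGB1, the shared beta subunit, named after its values were seen, had -0.0097 ± 0.04 (95% confidence interval -0.10 to 0.08). Of 11 collagenases, gelatinases and collagen-cutting cathepsins 3 were detected. CTSB had 0.18 ± 0.09, CTSL 0.09 ± 0.05 and MMP1, the interstitial collagenase, 0.02 ± 0.05 (limma adjusted p = 0.388, 0.446 and 0.829). MMP2, MMP9, MMP13 and MMP14 were detected on no array.

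Among the cell type markers none passed the test either. EPCAM, KRT7 and MUC1 had log2 fold changes of -0.10 ± 0.04, 0.11 ± 0.06 and -0.19 ± 0.12. PDGFRA, the fibroblast marker that was detected, had 0.12 ± 0.05 (limma adjusted p = 0.276). CD14, CD68 and PECAM1 had 0.12 ± 0.07, -0.04 ± 0.06 and 0.04 ± 0.12.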

How the data were processed

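Each of the 12 arrays gave each probe a detection p-value and an unnormalised linear signal intensity, per the file headers. No source used here names the software or the genome build. The processed intensity deposited by the authors equalled a quantile normalisation of that signal to within 3.33e-06. Per the submitters' processing notes limma is named, with no step given. Groups were taken from the sample titles.

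Signals were background corrected, quantile normalised and put on the log2 scale with neqc of limma 3.58.1 in R 4.3.3 (offset 16, with the negative-control level taken from detection p-values). The offset pulls changes of dim probes towards 0. Each of 16495 probes with a detection p under 0.05 on at least 6 arrays was tested with lmFit and eBayes on the group alone, with Benjamini-Hochberg adjustment over all of them and two-sided p-values. Single values were tested by exact permutation over 924 assignments. Where 1 probe stands for a gene, it is the brightest detected one. Symbols come from the platform annotation (30113 probes with 1 symbol, 8 with several, 17202 with none), updated for 30074 through the RefSeq table of GRCh38.p14. No probe with several was named.

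The collagen genes, the lists, the pairs and the alternatives were chosen with earlier results of these data known. All detected collagen genes are given, and from each other list the 3 members with the smallest p. Single arrays are listed for the brightest probe of a collagen or list gene with an adjusted p under 0.05 or an unadjusted p under 0.01. The other COL8A1 probes are given as lowest, median and highest, and TIMP1 as mean and SD. The fit was tested on simulated data with independent noise for each probe. These held no differences shared across an array, so they say nothing of how stable the calls are. Figures were drawn with matplotlib 3.10.9.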

Additional observations from a re-analysis of the deposited data

Results flagged for a closer look

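In COL8A2 knockdown 6 lay apart from the other knockdown arrays, at 8.05 with the nearest at 7.51, a gap of 0.794 of the group's range. This was the 1 such array among 34 groups of 6 examined, of which chance would set apart about 1 in 20. Without knockdown 6 the log2 fold change of COL8A2 was 0.09. COL4A6, left out of the tests for low detection, was detected by probe ILMN_1675857 on 4 knockdown arrays and 1 control array, and COL5A1 on 2 knockdown arrays and 1 control array. In a limma fit over all 47323 probes COL4A6 had a log2 fold change of 0.26 ± 0.10 on that probe (adjusted p = 0.458) and COL5A1 had -0.0076 ± 0.10 (adjusted p = 0.988).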

How the results depend on the processing

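The collagen probes called higher, 2 with all arrays, numbered 0 with scaling by the median alone, without a detection filter, with detected probes per array as a covariate and without knockdown 2 and 6, and 0 to 3 when single arrays were left out. The 50 probes called in all became 11 with scaling by the median alone, 11 without a detection filter, 0 with the covariate (1152 at an unadjusted limma p under 0.05), 1 without knockdown 2 and 6, and 0 to 142 without single arrays (1839 to 3036 unadjusted). With the replicate number as a block there were 28 calls in all and 1 collagen probe higher. The labels do not say that a number marks a shared batch or culture. Deviations of same-numbered arrays correlated between -0.11 and 0.19, below 0 in 3 of 6 pairs, and 2 of 6 knockdown arrays correlated best with their own number. No cut-off for pairing was set, and the main fit used the group alone. No collagen probe was called lower under any alternative run. The pathway and marker lists had 0 to 1 calls without single arrays, the 1 being ITGA1 without knockdown 1. The ratio of COL8A1 to COL8A2 passed at 0.34 without background correction, which is the same fit as that of the authors' processed values. It passed at 0.32 with a normexp offset of 50, 0.35 with median scaling and 0.27 without knockdown 2 and 6. Without single arrays it lay between 0.21 and 0.35. It also passed without control 3 and without knockdown 6 (exact permutation p = 0.0152 for each), while the replicate block gave p = 0.125 by exact permutation of signs. It was not recomputed with other detection filters or the covariate. TIMP1, at -0.19, passed with the stricter filter (adjusted p = 0.0449; up to 0.517 over its other alternatives). The median over collagen genes was 0.091 with median scaling, under which the median over all detected genes was 0.13, against 0.016 in the main normalisation.

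Signs turned for collagen genes near 0. Median scaling gave COL11A2 0.0037, COL6A1 0.11 and the dimmer COL4A5 probe 0.028. The median of all detected probes was 0.12 under that scaling. Relative to it the same probes stayed below 0, at -0.11, -0.0032 and -0.088. The covariate gave COL11A2 0.14, COL16A1 -0.19 and the brighter COL4A5 probe -0.049. Without knockdown 2 and 6 the values were 0.030 for COL11A2, 0.0066 for COL6A1 and -0.035 for the brighter COL4A5 probe. Without single arrays COL11A2 ranged from -0.14 to 0.052, COL18A1 from -0.059 to 0.062, COL6A1 from -0.060 to 0.014, and COL4A5 from -0.0052 to 0.051 on its brighter and from -0.092 to 0.020 on its dimmer probe. The cause was not tested. Signal over background limits the 58 collagen probes left out of the tests.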

Other observations

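Without a detection filter, 0 of the 58 collagen probes left out of the tests were called by limma, and 4 had an unadjusted p under 0.05. These 4 were a second COL4A6 probe (ILMN_1813021) with a log2 fold change of 0.14 ± 0.05, the COL4A6 probe ILMN_1675857, a COL11A1 probe with 0.10 ± 0.04 and the COL27A1 probe with 0.14 ± 0.06. Apart from ILMN_1675857 they were detected on no array. The largest difference among the 58 was that of the dimmer COL18A1 probe, at -0.36 ± 0.21, which was detected on 1 knockdown array and 3 control arrays.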
